A study of Mus musculus with 3 samples.

Results

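Hepatic acute phase proteins are secreted plasma proteins whose genes change in the liver during inflammation. The 10 genes described here were chosen by name: the serum amyloid genes Saa1, Saa2, Saa3 and Saa4, the siderophore-binding lipocalin Lcn2, haptoglobin Hp, hemopexin Hpx, the orosomucoids Orm1 and Orm2, and ceruloplasmin Cp. They are 10 of 24841 genes on the array and are read by 15 probes. RNA of Hepa1c1c7 cells, a line derived from a mouse liver tumour, was hybridised to 3 Agilent arrays of 1 colour (Cy3). The cells carried a Cd74 vector (the invariant chain of MHC class II and a receptor for the cytokine MIF), a Tmem54 vector (a transmembrane protein) or an empty vector. Each vector has 1 array, so no difference was tested, no value has a spread between cultures, and a difference between vectors cannot be told apart from a difference between cultures. The time after transfection, the vector backbone and the number of cells or clones behind each RNA are not given in the sources used here.

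In the acute phase response, interleukins and tumour necrosis factor released by macrophages act on hepatocytes. They act through NF-kB, STAT3 and the C/EBP factors, and the hepatocytes then secrete amyloids, scavengers of haemoglobin and haem, and proteins that deprive bacteria of iron. Some of these proteins rise only in this state, while others, such as Saa4, are made at a steady level. In mice Saa3 and Lcn2 are also made outside the liver, by macrophages, epithelia and fat.

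Between 55.7% and 57.2% of the spots other than controls exceeded background clearly on each array, called well above background by the scanner software, and 0 spots were saturated. The probe of Cd74 had a processed signal of 10855 with the Cd74 vector, 22.4 with the Tmem54 vector and 26.8 with the empty vector. The probe of Tmem54 had 19747 with its own vector, and neither of the other arrays gave it a signal well above background, so both probes matched the labels. Of 13 hepatocyte markers 7 were measurable (well above background on 1 array or more), among them the albumin gene Alb and the fetal albumin relative Afp. The apolipoprotein genes Apoa1 and Apob, the transthyretin gene Ttr, the factor gene Hnf4a, the fibrinogen gene Fgb and the urea cycle gene Cps1 were not well above background on any array. Of 9 macrophage markers 5 were well above background, Cd68, Csf1r, Ptprc, Lyz2 and Itgam, with summed signals of 11062 with the Cd74 vector, 12077 with the Tmem54 vector and 12208 with the empty vector. The macrophage markers Adgre1, Cd163, Clec4f and Aif1 were not well above background on any array.

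Lcn2 and Saa3 were the acute phase genes that differed most between the arrays, and both were dimmest with the Tmem54 vector. Of the 10 genes, 6 were measurable: Saa1, Saa3, Lcn2, Hp, Hpx and Cp. The other 4, Saa2, Saa4, Orm1 and Orm2, were not well above background on any array, so no fold is given for them. With the Tmem54 vector, all 6 genes compared were below 0 on the log2 scale against the empty vector, as were 50.9% of the 15521 genes compared. Of these 6, 5 were measured on both arrays and Hpx is a bound, whose sign follows from its not being well above background with Tmem54. Hp and Cp lay within the model error, which leaves Lcn2, Saa3 and Saa1 beyond it. Of 14690 genes measured on both arrays, 5.24% were at least as low as Saa1 (-0.32), 0.163% as Saa3 and 0.0477% as Lcn2. Among the 6, 2 were at least 2-fold lower, against 0.812% of all genes. None (0 of 6) was 2-fold higher there, against 0.522%. With the Cd74 vector, 0 of 6 genes were 2-fold higher than with the empty vector, against 1.02% of 15630 genes, and 0 were 2-fold lower, against 1.4%. Counts past a fold are descriptions here, since 1 array per vector gives no test.

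**Figure D1:**
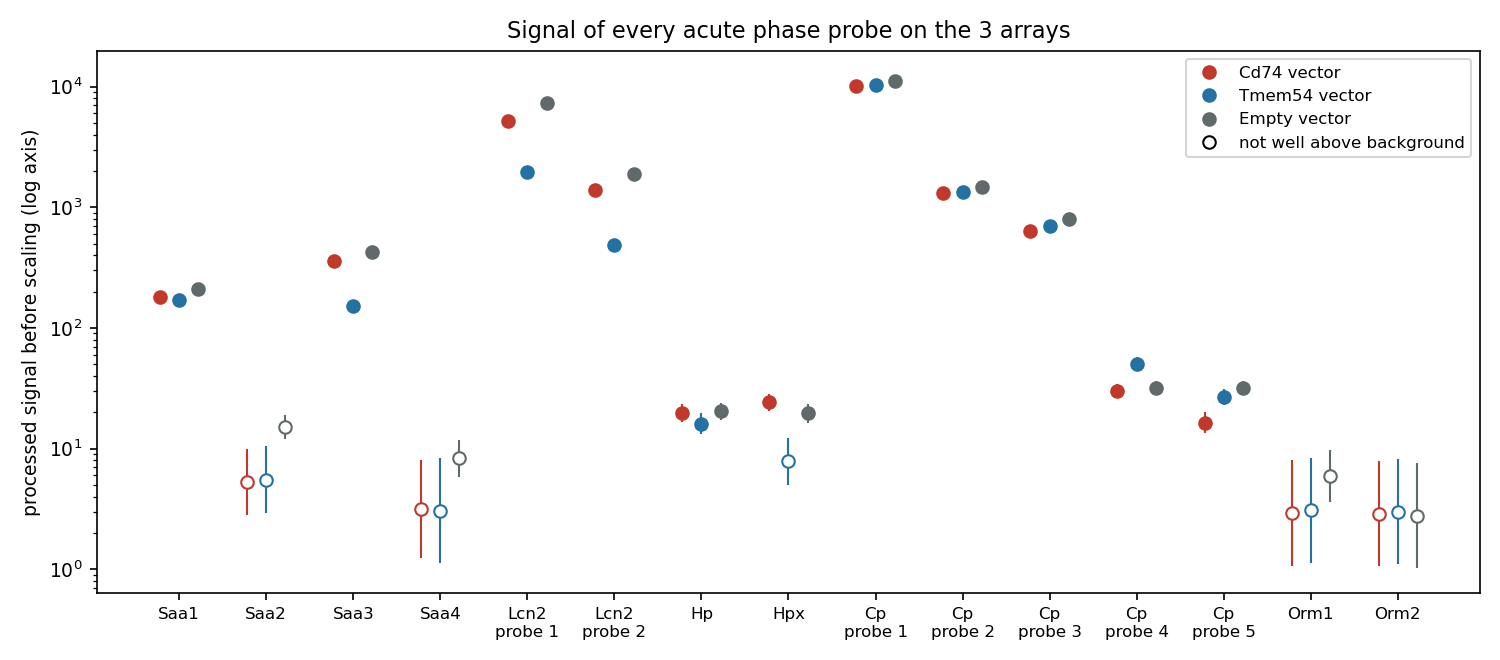
Processed signal of each of the 15 acute phase probes (log axis) with the Cd74, Tmem54 and empty vector, 1 array each. Bars show the error that the scanner software's model gives to 1 spot, and open points were not well above background. Both Lcn2 probes and the Saa3 probe are dimmest with the Tmem54 vector, while each of the 3 brightest Cp probes has similar signals on the 3 arrays.

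Lcn2 encodes a secreted lipocalin that binds bacterial siderophores and so withholds iron. Its brighter probe lies at 32240199 to 32240258 on chromosome 2 (mm9) and read 5196 with the Cd74 vector, 1977 with the Tmem54 vector and 7284 with the empty vector. The signal with the Tmem54 vector stood well below both others, and that with the Cd74 vector lay nearer to the empty vector. After each array was scaled to its 75th percentile, the log2 difference was -1.89 ± 0.20 for Tmem54 against empty (the error is the combined model error of the 2 spots, here and below), or 3.72-fold lower. Cd74 against empty gave -0.42 ± 0.20, or 1.34-fold lower, and Cd74 against Tmem54 gave 1.47 ± 0.20. A second probe of 60 bases has its ends at 32241037 and 32241281, 245 bases apart, so it crosses a splice junction, and it shares no stretch of 20 bases with any other probe of the array. It is shown because it reads the same gene at another place:
Lcn2 second probe: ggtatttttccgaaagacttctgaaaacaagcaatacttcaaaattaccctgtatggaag
This probe had 1399 with the Cd74 vector, 485 with the Tmem54 vector and 1900.0 with the empty vector. Its log2 differences were -1.98 ± 0.20 for Tmem54 against empty and -0.38 ± 0.20 for Cd74 against empty, apart from those of the brighter probe by less than the model error. The order of the 3 arrays was thus the same at both places in Lcn2. Among the 9904 bright genes, those measured on every array and reaching the median of detected probes, Lcn2 ranked 1 from the low end for Tmem54 against empty. It ranked 378 from the low end for Cd74 against empty. Among all genes measured on both arrays of a comparison, Lcn2 ranked 7 of 14690 for Tmem54 against empty and 921 of 14693 for Cd74 against empty.

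The serum amyloid genes encode small apolipoproteins carried on high-density lipoprotein, and they lie side by side on chromosome 7. Saa3 and Saa1 were well above background on all arrays. Their probes are shown because they read neighbouring, related genes that differed unequally with the Tmem54 vector:
Saa3 probe (chr7:53967559-53967618, mm9): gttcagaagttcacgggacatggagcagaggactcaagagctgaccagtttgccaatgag
Saa1 probe (chr7:53996070-53996129, mm9): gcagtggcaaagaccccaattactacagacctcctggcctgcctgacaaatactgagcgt
Saa3, the serum amyloid gene also made by macrophages and fat, had 357 with the Cd74 vector, 152 with the Tmem54 vector and 429 with the empty vector. As for Lcn2, the array of the Tmem54 vector was the low one. The log2 difference was -1.51 ± 0.21 for Tmem54 against empty, or 2.85-fold lower, -0.20 ± 0.20 for Cd74 against empty and 1.31 ± 0.21 for Cd74 against Tmem54. With normexp background correction these became -1.16 for Tmem54 against empty and 0.99 for Cd74 against Tmem54, so the second no longer reached 2-fold. Saa1, an amyloid strongly induced in the liver in inflammation, had 181 with the Cd74 vector, 172 with the Tmem54 vector and 212 with the empty vector. Its log2 differences were -0.32 ± 0.21 for Tmem54 against empty and -0.16 ± 0.21 for Cd74 against empty. The difference of Tmem54 from the empty vector passed the model error, while those of Cd74 from the empty vector and from Tmem54 (0.16 ± 0.21) did not.

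Saa2, the other strongly inducible amyloid of mouse liver, had 5.28 with the Cd74 vector, 5.52 with the Tmem54 vector and 15.2 with the empty vector. Saa4, the constitutive member, had 3.17, 3.05 and 8.27 in the same order of vectors. All of these signals were not well above background, including the higher ones with the empty vector. Saal1, the neighbour of Saa3 on the side away from Saa4, had 385 with the Cd74 vector, 373 with the Tmem54 vector and 389 with the empty vector. Saal1, whose product is named for its likeness to serum amyloid A, thus did not follow Saa3 at this locus. The Hps5 probe beside Saa2, which reads a gene of lysosome-related organelles, had 1187, 1380.0 and 1232 in the same order.

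Haptoglobin and hemopexin carry free haemoglobin and free haem out of the blood, and both were dim in these cells. The Hp probe (chromosome 8, 112099045 to 112099104, mm9) had 19.6 with the Cd74 vector, 16.1 with the Tmem54 vector and 20.4 with the empty vector, each above the lowest signal counted as well above background on its array (13.1 to 13.9). Its log2 differences, 0.01 ± 0.34 for Cd74 against empty and -0.35 ± 0.37 for Tmem54 against empty, were within the model error. The Hpx probe (chromosome 7, 112740304 to 112740363, mm9) had 24.1 with the Cd74 vector, 7.82 with the Tmem54 vector and 19.5 with the empty vector, and the Tmem54 value was not well above background. A difference from such an array is a bound, in which the brighter array is set against the lowest signal well above background on the dim array, 13.9 for Tmem54. By this rule Hpx was at least 1.41-fold lower with the Tmem54 vector than with the empty vector, and at least 1.83-fold higher with the Cd74 vector than with the Tmem54 vector. These bounds leave out the error of the spots and depend on the processing. On the log2 scale they were -0.50 and 0.87, and became -0.24 and 0.33 with normexp background correction. For Cd74 against empty the log2 difference was 0.37 ± 0.37. Probes printed 10 times on each array, with mean signals between 10 and 100, had a median SD between spots of 0.14 to 0.16 on the log2 scale (6 or 7 such probes per array), against 0.057 to 0.073 for signals of 1000 to 20000.

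The orosomucoids are acidic plasma glycoproteins that bind drugs and lipids. The probe named Orm1 is listed in the files for transcripts of both Orm1 and Orm2, so the genes cannot be told apart by it. It is shown for that reason:
Orm1 probe (in blocks between 63007395 and 63009038 on chromosome 4, mm9): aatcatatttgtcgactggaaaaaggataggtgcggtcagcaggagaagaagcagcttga
It had 2.93 with the Cd74 vector, 3.07 with the Tmem54 vector and 5.93 with the empty vector. The probe of Orm2 alone had 2.88 with the Cd74 vector, 2.999664 with the Tmem54 vector and 2.78 with the empty vector. Neither was well above background on any array. Orm3, another gene of this cluster, had 13.0 with the Cd74 vector, which was not well above background, 16.9 with the Tmem54 vector and 15.9 with the empty vector.

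Ceruloplasmin, the copper-carrying ferroxidase of plasma, was bright and close to level over the arrays. Its brightest probe (chromosome 3, 19889071 to 19889130, mm9) had 10106 with the Cd74 vector, 10228 with the Tmem54 vector and 11223 with the empty vector. The log2 differences from the empty vector were -0.09 ± 0.20 for Cd74 and -0.15 ± 0.20 for Tmem54, both within the model error. The next probe had 1305, 1348 and 1473 with the Cd74, Tmem54 and empty vector, and another, designed on an Ensembl transcript, had 640.1, 704 and 806. Over these 3 probes the differences from the empty vector lay between -0.27 and -0.09 for Cd74 and between -0.21 and -0.14 for Tmem54. The dimmest of the 3 passed its model error of 0.20 for both vectors, with -0.27 for Cd74 and, by little, -0.21 for Tmem54. Another pair of Cp probes, designed on RefSeq transcripts other than that of the brightest probe, lies further along the gene and was dim. One (19909387 to 19909446) had 30.1 with the Cd74 vector, 50.7 with the Tmem54 vector and 31.8 with the empty vector, a log2 difference of 0.66 ± 0.25 for Tmem54 against empty. The other (19907511 to 19907570) had 16.3, 26.9 and 31.6 in the same order of vectors, a log2 difference of -0.89 ± 0.35 for Cd74 against empty. Against the empty vector, the first gave -0.01 ± 0.27 for Cd74 and the second -0.24 ± 0.29 for Tmem54, both within the model error. For Cd74 against Tmem54 the dim pair gave -0.68 ± 0.26 and -0.64 ± 0.36, where the brightest probe gave 0.06 ± 0.20. Probes of the neighbouring gene Hps3 lie on both sides of the pair. Averaging all 5 probes turned the Cp difference of Cd74 against Tmem54 from 0.06 to -0.26.

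**Figure D2:**
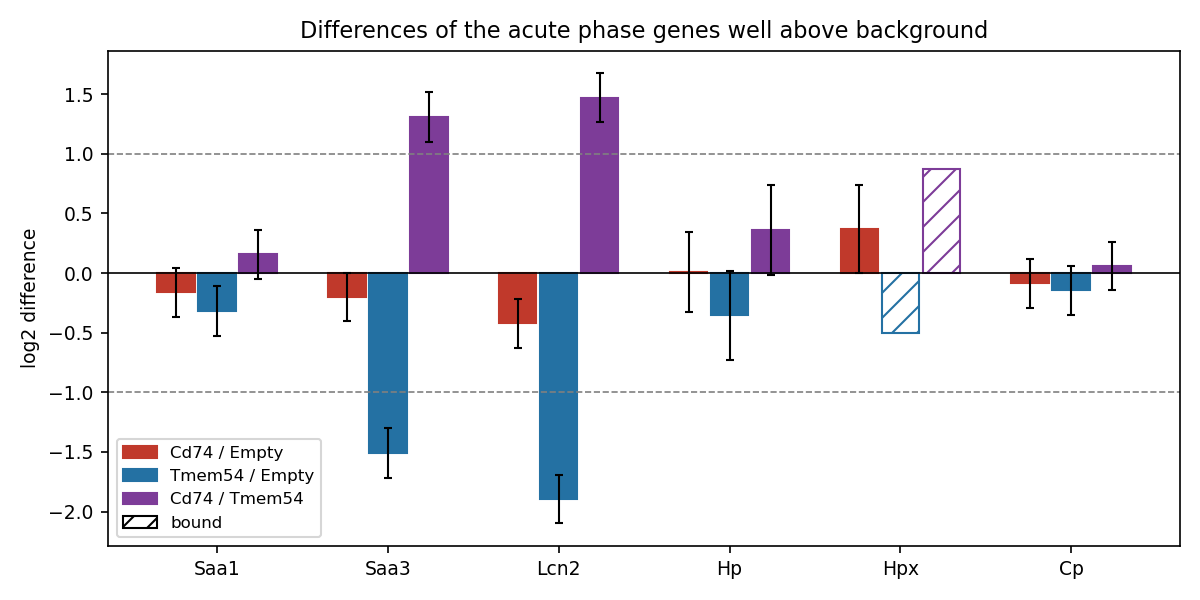
Log2 difference of the 6 acute phase genes well above background for Cd74 against empty, Tmem54 against empty and Cd74 against Tmem54, 1 array per vector. Error bars are the combined model error of the 2 spots, hatched bars are bounds, and dashed lines mark 2-fold. Lcn2 (-1.89) and Saa3 (-1.51) pass 2-fold for Tmem54 against empty and again, upwards, for Cd74 against Tmem54.

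Over the 6 genes compared, the median log2 difference was -0.43 for Tmem54 against empty, with a range of -1.89 to -0.15, beside a median of -0.003 over all genes compared. For Cd74 against empty the median was -0.12, with a range of -0.42 to 0.37, beside 0.01 over all genes. Of these 6, 2 were above 0 and 4 below for Cd74 against empty, where 52.3% of all genes were above 0 and 47.6% below. Saa1, Saa3, Hp and Cp lay within the model error there, and Hpx (0.368 against 0.367) passed it only by little. The comparison of Cd74 with Tmem54 uses the same arrays again, and it gave a median of 0.62 beside 0.03 over all genes. There all 6 genes were above 0, as were 54.4% of all genes, but Hpx is a bound, and Saa1, Hp and Cp lay within the model error. Of the 6, 2, Lcn2 and Saa3, were at least 2-fold higher, against 1.63% of 15423 genes, with 0 at least 2-fold lower, against 1.69%. At a fold of 1.5, 0 of the 6 were higher and 0 lower for Cd74 against empty, where 3.38% and 4.14% of all genes were. For Tmem54 against empty 0 were higher and 2 lower, where 1.32% and 2.49% of all genes were. For Cd74 against Tmem54 3 were higher and 0 lower, where 5.07% and 4.79% of all genes were. The additional gene was Hpx, a bound of 0.87 that became 0.33 with normexp correction. The medians of the 6 genes move with which genes are kept, since only Saa3, Lcn2 and Cp were bright.

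**Figure D3:**
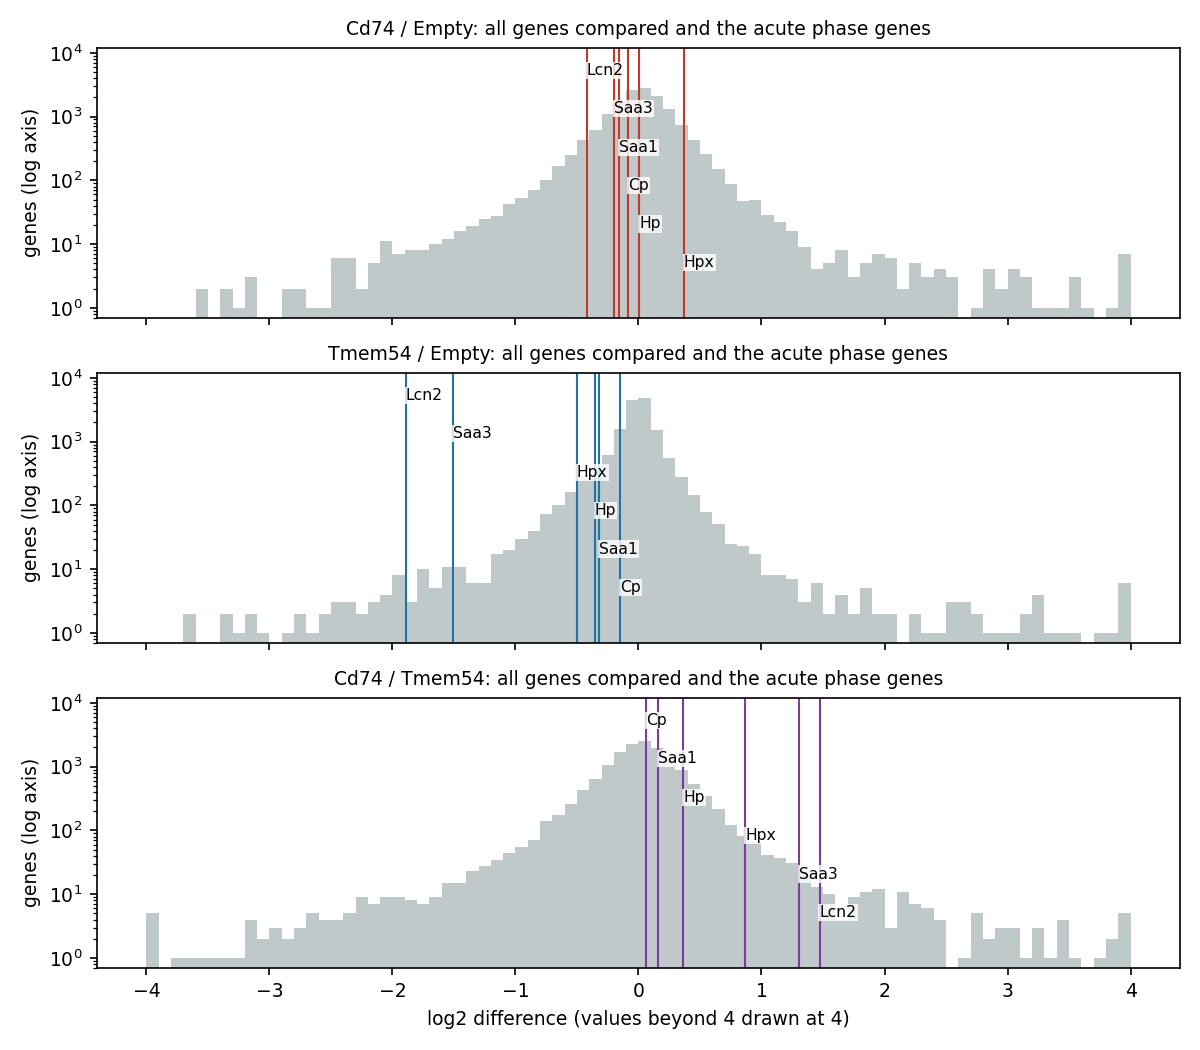
Histograms of the log2 difference of all genes compared (gene counts on a log axis) for Cd74 against empty, Tmem54 against empty and Cd74 against Tmem54, with a line for each of the 6 acute phase genes. For Tmem54 against empty Lcn2 and Saa3 lie in the sparse lower tail and the other 4 genes between -0.50 and -0.15, while for Cd74 against empty all 6 lie between -0.42 and 0.37.

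The genes whose pattern was nearest to that of Lcn2 were sought by distance over the pair of differences from the empty vector, among 9903 bright genes. The nearest were the neutrophil chemokine genes Cxcl5 (distance 0.22) and Cxcl1 (0.33), then Saa3 (0.44), the monocyte chemokine gene Ccl7 (0.70) and the peroxisomal CoA diphosphatase gene Nudt7 (0.95). Cxcl5 had 19071 with the Cd74 vector, 8794 with the Tmem54 vector and 30949 with the empty vector. Cxcl1 had 8283, 2564 and 9268 in the same order. The distance rests on 3 arrays, and the differences share the array of the empty vector.

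Promoter sequences, 250 bases up to the annotated start site, were taken from RefSeq for 8 of the 10 genes (not Hp and Orm1) on build GRCm38.p6, in 9 windows. They are shown for Saa3 and Lcn2, which were lower together with the Tmem54 vector, and for Saa1 and Saa2, whose windows are alike (94.8% identity) while only the Saa1 probe was well above background. The files list that probe for Saa1 only, and its bases were not compared with the Saa2 transcript. Motif letters are short forms from general knowledge of these factors, and other forms of their sites were not searched. Capitals mark matches, on either strand, of the C/EBP motif searched, TTNNGCAA:
Saa3 (chr7:46715677-46715926, minus strand): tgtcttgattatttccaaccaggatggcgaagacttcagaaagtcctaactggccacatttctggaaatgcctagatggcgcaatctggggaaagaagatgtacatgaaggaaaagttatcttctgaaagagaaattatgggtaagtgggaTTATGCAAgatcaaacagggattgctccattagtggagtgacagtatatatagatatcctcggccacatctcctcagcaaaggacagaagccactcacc
Lcn2 (chr2:32387740-32387989, minus strand): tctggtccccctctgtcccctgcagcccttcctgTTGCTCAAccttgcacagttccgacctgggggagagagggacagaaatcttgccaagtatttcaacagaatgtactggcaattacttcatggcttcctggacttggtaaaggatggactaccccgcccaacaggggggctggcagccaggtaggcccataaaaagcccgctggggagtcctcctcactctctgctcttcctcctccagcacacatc
Saa1 (chr7:46742981-46743230, minus strand): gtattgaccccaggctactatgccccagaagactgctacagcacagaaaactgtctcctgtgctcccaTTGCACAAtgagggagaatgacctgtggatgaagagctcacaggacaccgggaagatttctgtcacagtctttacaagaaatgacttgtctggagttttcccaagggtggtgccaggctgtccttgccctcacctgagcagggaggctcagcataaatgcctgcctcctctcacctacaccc
Saa2 (chr7:46751583-46751832, plus strand): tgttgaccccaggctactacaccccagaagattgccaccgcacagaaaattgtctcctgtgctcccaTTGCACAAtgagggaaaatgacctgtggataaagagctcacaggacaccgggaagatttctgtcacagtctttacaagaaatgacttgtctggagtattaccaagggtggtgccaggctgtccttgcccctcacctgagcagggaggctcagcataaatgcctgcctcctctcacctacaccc
A match of this motif was present in 8 of the 9 windows, at least 1 for each of the 8 genes, against 9.56% of 32851 windows of the same length. In Saa3 it lay from -99 to -92 and in Lcn2 from -216 to -209 relative to the start site, and it lay at -182 in Saa1 and -183 in Saa2. The NF-kB motif searched, GGG, then 2 bases of any kind, then TTTCC, was found in 0 of the 9 windows, against 1.41% of all windows, and the STAT motif, TTCNNNGAA, in 0, against 7.02%. A match shows letters and not binding, and the C/EBP motif was found in Saa1 and Cp as well as in Saa3 and Lcn2. The windows of Saa3 and Lcn2 had 50.5% identity in a global alignment, close to the 52.5% of Saa1 and Saa3.

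**Figure D4:**
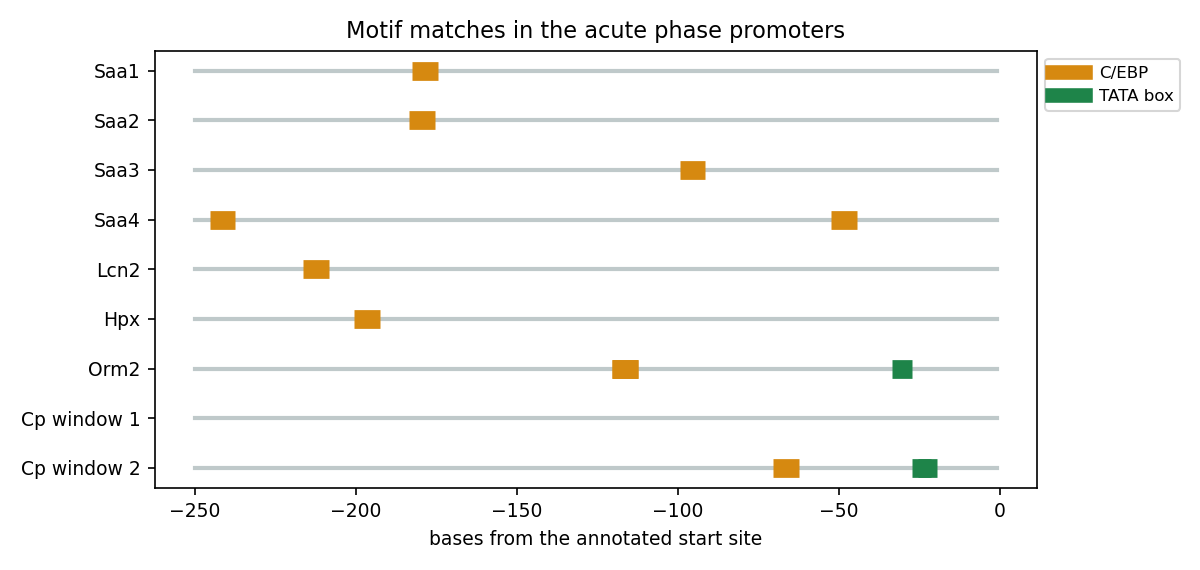
Positions of C/EBP and TATA box (TATAAA) matches in 250 bases before the annotated start site of 8 acute phase genes, with 2 windows for Cp; the x axis is in bases from the start site. Matches of the C/EBP motif are at different distances in Saa3, Lcn2 and Saa1, and nearly the same one in Saa1 and Saa2.

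Of 33 other positive acute phase genes 22 were compared, with a median of -0.05 for Tmem54 against empty and 0 counted at 2-fold in either direction. Over all genes compared, 0.522% were at least 2-fold higher there and 0.812% at least 2-fold lower. Lrg1 (-0.28) and Serping1 (-0.18) are bounds there, so their differences may be larger. The largest measured difference there was that of Vnn1, a pantetheinase gene, at -0.73 ± 0.21. For Cd74 against empty the median was -0.33, with 15 of 22 genes below 0, where 47.6% of all genes compared were. Of these 15, Orm3, Fga, Lrg1 and Serping1 are bounds, whose sign follows from their not being well above background with Cd74. Crp, the C-reactive protein gene, had 17.3 with the Cd74 vector, 49.97 with the Tmem54 vector and 46.8 with the empty vector, a log2 difference of -1.37 ± 0.35 for Cd74 against empty. Il1rn, which encodes the antagonist of the interleukin-1 receptor, had 193, 90.5 and 88.2 in the same order, a difference of 1.19 ± 0.21. The fibrinogen gene Fga was not well above background with the Cd74 vector, and the bound on its log2 difference from the empty vector was -0.997, just short of 2-fold. Negative acute phase genes, which decline in inflammation, had 6 of 12 compared, with medians of -0.17 for Cd74 and 0.03 for Tmem54 against empty. Among them Alb had 2993 with the Cd74 vector, 10261 with the Tmem54 vector and 5727 with the empty vector, so it was lower with Cd74 (-0.87 ± 0.20) and higher with Tmem54 (0.83 ± 0.20).

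Among the cytokines that drive the response, 7 of 11 were compared, with medians of 0.11 for Cd74 and -0.19 for Tmem54 against empty. Il6, the main hepatocyte-stimulating cytokine, had 70.4 with the Cd74 vector, 34.4 with the Tmem54 vector and 58.9 with the empty vector. Its log2 difference was -0.79 ± 0.25 for Tmem54 against empty and 1.11 ± 0.25 for Cd74 against Tmem54. The brighter cytokine gene Tnf gave -0.19 for Tmem54 against empty, and the signalling genes Stat3 and Socs3 gave -0.02 and 0.20. Any link of Il6 with Lcn2 and Saa3 was not tested. Il1a, Il1b and Osm were not well above background on any array. Il33, an alarmin, was not well above background with the Cd74 vector and was at least 2.33-fold lower there than with the empty vector. All 11 receptor genes were compared, and 0 reached 2-fold in any comparison, where 0.522% to 1.69% of all genes did in each direction. Their medians from the empty vector were -0.15 for Cd74 and -0.03 for Tmem54. Il1r1, the interleukin-1 receptor gene, had 86.6 with the Cd74 vector, 152 with the Tmem54 vector and 138 with the empty vector, a difference of -0.61 ± 0.21 for Cd74 against empty.

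Of 43 signal transducers and transcription factors 40 were compared, and 28 of the 40 were below 0 for Tmem54 against empty (median -0.07), against 17 of 40 for Cd74 against empty (median 0.04). In both comparisons many of these differences lay within the model error, so their signs alone say little. Over all genes compared, 50.9% were below 0 for Tmem54 against empty and 47.6% for Cd74 against empty. None of the 40 was at least 2-fold lower (0 genes) in either of these comparisons, where 0.812% of all genes were for Tmem54 and 1.4% for Cd74. Cebpd, a C/EBP factor induced in the acute phase, had 2747 with the Cd74 vector, 2183 with the Tmem54 vector and 3474 with the empty vector, a difference of -0.68 ± 0.20 for Tmem54 against empty. Tnfaip3, the NF-kB feedback inhibitor A20, had 4881, 2464 and 3911 in the same order, with -0.68 ± 0.20 for Tmem54 against empty and 1.06 ± 0.20 for Cd74 against Tmem54. Creb3l3, a liver factor cleaved at the endoplasmic reticulum under stress, had 29.7 with the Cd74 vector, 16.8 with the Tmem54 vector and 13.4 with the empty vector, and was 2.32-fold higher for Cd74 against empty (1.22 ± 0.37). Its signal with the empty vector lay close to the lowest counted as well above background on that array, 13.1. Creb3l3 was the 1 gene of the 40 at least 2-fold higher for Cd74 against empty, where 1.02% of all genes were.

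Genes that handle haem and iron beside Hp, Hpx, Lcn2 and Cp were compared for 19 of 20 genes for Cd74 against empty (median 0.05) and 18 for Tmem54 against empty (median 0.04). Hmox1, heme oxygenase, had 27446 with the Cd74 vector, 6076 with the Tmem54 vector and 7550.1 with the empty vector, a difference of 1.93 ± 0.20 for Cd74 against empty. The beta-globin gene Hbb-b1 had 196 with the Cd74 vector and no signal well above background elsewhere, and was thus at least 15.7-fold higher with Cd74 than with the empty vector. Cd163, the macrophage receptor for haptoglobin bound to haemoglobin, was not well above background on any array. Lipoprotein partners of the serum amyloids were compared for 8 of 11 genes, with medians of -0.02 for Cd74 and -0.04 for Tmem54 against empty. The cholesterol exporter gene Abca1 was lower with the Cd74 vector (-0.63 ± 0.20).

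**Figure D5:**
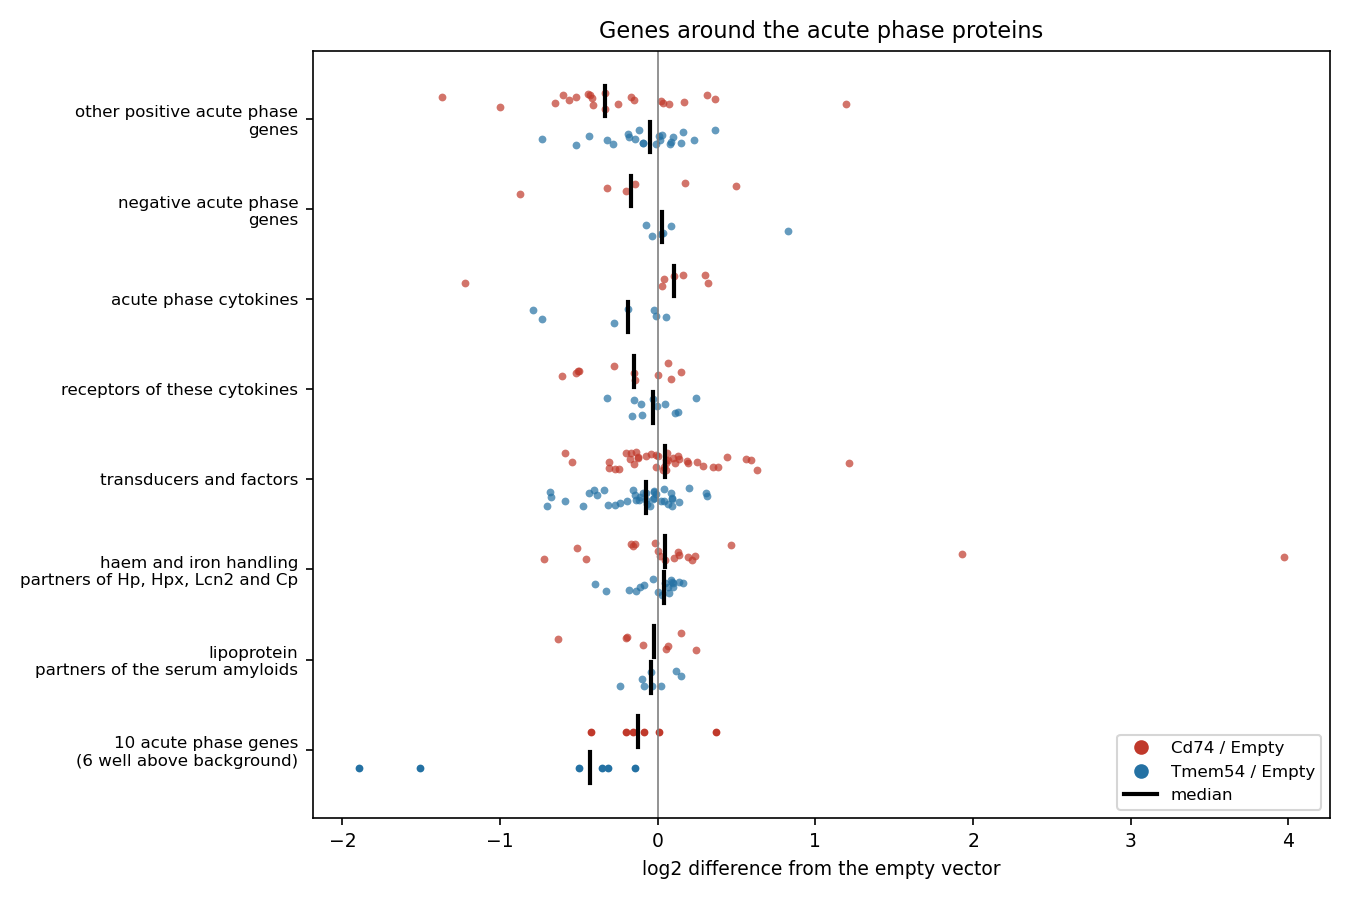
Log2 differences from the empty vector of single genes in 7 groups around the acute phase proteins and of the 6 acute phase genes themselves, for the Cd74 and Tmem54 vectors; black bars are medians. For Tmem54 the median of the acute phase genes (-0.43) is below that of each other group, with Lcn2 and Saa3 standing apart, and the points furthest right are Hbb-b1 and Hmox1 with Cd74.

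Neutrophils also hold Lcn2, and of 9 neutrophil markers 7 were measurable, with summed signals of 21056 with the Cd74 vector, 21654 with the Tmem54 vector and 22747 with the empty vector. Most of each sum was Csf3r, the receptor gene for granulocyte growth factor, with 20042, 20688 and 21713 in the same order. S100a9 had 97.3 with the Cd74 vector, 52.5 with the Tmem54 vector and 75.6 with the empty vector, and S100a8 had 15.8, 14.5 and 19.3. Ly6g, a neutrophil surface marker gene, was 2.15-fold lower with the Cd74 vector than with the empty vector (-1.10 ± 0.21). Ngp and Cxcr2 were not well above background on any array. Of 9 fibroblast and stellate cell markers 7 were measurable, with summed signals of 91914 with the Cd74 vector, 82463 with the Tmem54 vector and 90789.6 with the empty vector, while Lrat and Lum were not well above background. Gene by gene these markers went another way than the sums. Against empty, 5 were above 0 and 2 below for Tmem54 (median 0.20), and 1 was above and 6 below for Cd74 (median -0.25). Of 5 bile duct cell markers 4 were measurable, with sums of 33790.3, 43428 and 39620 with the Cd74, Tmem54 and empty vector, and Epcam was not. The part of any of these markers in the Lcn2 and Saa3 differences was not tested.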

How the data were processed

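RNA of Hepa1c1c7 cells with a Cd74, Tmem54 or empty vector was measured on 3 arrays of 1 slide, 1 array per vector, grouped by the transfection label. The authors' files hold the intensity of each spot, and the submitters' processing notes name Agilent Feature Extraction, version 12.0.3.1. The processed signal is linear, after spatial and multiplicative detrending, with a multiplicative error of 0.1 in its error model, per the file headers. That error covers noise within an array only, and the number of arrays limits the precision. The deposited value table equals the processed signal divided by 559.8 for Cd74, 580.7 for Tmem54 and 580.3 for the empty vector, so it is linear and uncentred (column medians 0.0393, 0.039 and 0.0409).

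Each array's processed signals were divided by their 75th percentile over all spots other than controls, then put on the log2 scale. Printed signals are unscaled, and the 75th percentiles were 656 for Cd74, 693 for Tmem54 and 687 for the empty vector. Spots with outlier flags (119 to 135 per array) were left out. A gene took its brightest probe among those measured above background on 1 array or more, and a bright gene reached, on at least 1 array, the median of detected probes there while being well above background on all 3. Genes were named through accessions (33762 probes), symbols (9865) or unique synonyms (310) of RefSeq on GRCm38.p6, and 12657 probes have no symbol there. Probe coordinates are those of the files, on mm9.

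No test was run, and a gene was counted at 2-fold. All 10 genes are described, with up to 3 genes of each surrounding list and comparison by the size of their difference, and a few more named as markers, neighbours or undetected. The genes and lists were chosen with earlier results of these data known. The counting steps were tested on simulated data. Alternatives were normexp correction (limma 3.58.1, offset 50), centring on the median of probes detected on all arrays, quantile normalization, other probes of a gene, stricter filters, a fold of 1.5 and, chosen after seeing the data, the deposited value table.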

Additional observations from a re-analysis of the deposited data

How the results depend on the processing

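Of 121 differences of single acute phase genes recomputed under the alternatives, 118 moved by less than their model error and 3 by more, and 0 of the differences of at least 2-fold changed sign, while 3 others, of Hp and Cp, changed sign or became 0. Those that moved by more were Saa3 with normexp correction (-1.16 for Tmem54 against empty and 0.99 for Cd74 against Tmem54) and Cp averaged over its 5 probes (-0.26 for Cd74 against Tmem54). For Tmem54 against empty the median of the acute phase genes, -0.43, became -1.06 with the next-brightest probes of Lcn2 and Cp alone, where 1 gene was at least 2-fold lower against 2, and -1.51 over the 3 bright genes. That median shrank to -0.24 with normexp correction, and to -0.35 both with quantile normalization and among genes measured on both arrays. For Cd74 against Tmem54 the median, 0.62, became 0.23 with normexp correction, 0.36 among genes measured on both arrays and 1.31 over the bright genes, and the count at least 2-fold higher was 1 with normexp correction and 1 with next-brightest probes, against 2. Fewer genes enter under the filters and the next-brightest probes, and for normexp correction the cause was not tested. At 1.5-fold 3 genes were higher for Cd74 against Tmem54. Over all genes, the counts at least 2-fold higher and lower for Tmem54 against empty were 81 and 126, against 32 and 34 with normexp correction, 31 and 61 among genes measured on both arrays, 30 and 37 with next-brightest probes, and 4 and 17 among bright genes. For Cd74 against empty they were 160 and 219, against 58 and 61, 62 and 130, 49 and 50, and 25 and 36 under the same settings. For Cd74 against Tmem54 they were 251 and 261, against 94 and 103, 140 and 170, 64 and 67, and 57 and 69. At 1.5-fold the counts for the 3 comparisons were 205 and 386, 529 and 647, and 782 and 739. No paired analysis was possible because each vector has 1 array. Hp and Hpx, near background, are limited by signal.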
